A study of Homo sapiens with 22 samples.

Results

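The adrenomedullin and VEGF ligands and receptors are described here through 10 of the 33694 genes in the tables: the ligands ADM, VEGFA, VEGFC and FIGF (an older symbol of VEGFD), the receptors CALCRL, KDR and FLT1, and the co-receptors RAMP1, RAMP2 and RAMP3. They were taken by symbol and were chosen with their levels by day already known, so their levels and fold changes between days are a description and carry no test. Tests are given for contrasts between cells of the same pool, which the choice did not use, and for other genes of the pathways between days. BJ cells, an established line of newborn human foreskin fibroblasts, were driven towards induced pluripotent stem cells inside microfluidic chips by daily mRNA transfections (POU5F1, SOX2, KLF4, MYC, LIN28 and NANOG) until day 8. The groups are D0, labelled control and taken before any transfection, and D3, D5, D7, D9, D11, D13 and D15, labelled mRNA transfections. The medium was changed to a pluripotency medium on day 9, after the last transfection. D9 to D15 thus differ from D3 to D7 in transfection and medium as well as in time, and these cannot be told apart. Each day had 2 pools, A and B, each made of the cells of 4 chips and frozen before capture. Of these 16 pools, 6 went through capture as 2 separate aliquots, for 22 libraries. The transfected cultures were kept in a hypoxia incubator throughout. The oxygen level of the D0 fibroblasts is not given in the sources used here, and the medium changed from one with serum to a reprogramming medium with the first transfection, so oxygen, medium, plating and transfection cannot be told apart in any comparison with D0.

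Adrenomedullin is a secreted peptide that widens vessels and keeps their walls tight. CALCRL, its receptor, reaches the cell surface only together with a receptor activity-modifying protein: with RAMP1 it forms the receptor of CGRP, a related neuropeptide, and with RAMP2 or RAMP3 it forms the adrenomedullin receptors. VEGFA signals through KDR (VEGFR2), while FLT1 (VEGFR1) binds VEGFA tightly, has a weak kinase and also exists as a soluble decoy. VEGFC and VEGFD bind FLT4 (VEGFR3) and, after cleavage, KDR, and are known for the growth of lymphatic vessels. ADM and VEGFA are textbook targets of the hypoxia-inducible factors (HIF), and KDR is also known from mesoderm progenitors and from human pluripotent cells.

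The stretches of 250 bases before the annotated starts of 4 members are shown because the levels of these genes peaked on different days: CALCRL and FIGF in the middle of the course, ADM at its start and KDR at its end. They were read from RefSeq on GRCh38.p14, are written 5′ to 3′ on the strand of the gene, and carry every CG dinucleotide in capitals.
CALCRL, chr2:187448253-187448502, minus strand: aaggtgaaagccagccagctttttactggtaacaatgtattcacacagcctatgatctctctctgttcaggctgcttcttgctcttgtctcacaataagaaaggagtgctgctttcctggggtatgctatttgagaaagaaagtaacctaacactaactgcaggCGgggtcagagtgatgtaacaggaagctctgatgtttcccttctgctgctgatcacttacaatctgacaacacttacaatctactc
FIGF, listed as VEGFD, chrX:15384414-15384663, minus strand: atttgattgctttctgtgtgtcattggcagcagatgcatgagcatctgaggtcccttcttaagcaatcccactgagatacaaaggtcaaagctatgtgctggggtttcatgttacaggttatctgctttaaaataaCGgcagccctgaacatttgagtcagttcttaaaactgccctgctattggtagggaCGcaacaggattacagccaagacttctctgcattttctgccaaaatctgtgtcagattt
ADM, chr11:10304823-10305072, plus strand: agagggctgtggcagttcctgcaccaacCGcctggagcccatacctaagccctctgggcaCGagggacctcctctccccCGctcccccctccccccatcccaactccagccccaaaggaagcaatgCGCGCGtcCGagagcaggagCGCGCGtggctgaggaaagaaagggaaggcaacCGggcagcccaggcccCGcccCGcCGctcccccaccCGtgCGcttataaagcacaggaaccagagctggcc
KDR, chr4:55125596-55125845, minus strand: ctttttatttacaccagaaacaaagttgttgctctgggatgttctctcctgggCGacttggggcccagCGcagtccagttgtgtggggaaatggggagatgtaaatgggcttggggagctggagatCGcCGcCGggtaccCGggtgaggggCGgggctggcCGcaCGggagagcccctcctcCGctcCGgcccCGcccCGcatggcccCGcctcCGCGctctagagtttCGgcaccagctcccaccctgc
The start of CALCRL in GENCODE, base 187448460, lies inside its window, so by that annotation most of the window is within the gene. The windows of both transient genes are poor in CG. CALCRL has 1 CG and FIGF has 2, against a median of 11 over 35116 promoter windows of this length. Of all windows, 14.7% have 1 CG or fewer and 22.9% have 2 or fewer. ADM has 16 CG, KDR 17, RAMP3 19, VEGFC 22 and FLT1 25. The core letters of a hypoxia response element (ACGTG or GCGTG, either strand) occur in ADM, 101 bases before the start, and in RAMP3, VEGFC and FLT1. They do not occur in these letters in the windows of CALCRL, FIGF and KDR, and 43.2% of all windows hold them. The letters TATAAA occur in ADM and FLT1 and in 10.7% of all windows. Of the 10 members, 7 were in the promoter table, and RAMP1, RAMP2 and VEGFA were not among them.

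The tables held 44197 barcodes, of which 41975 passed the filter on genes and mitochondrial UMIs (unique molecular identifiers, 1 per captured transcript). The pools held 571 to 6142 cells and 33181614 to 180056814 UMIs, with medians of 23717 to 80168 UMIs per cell. The median mitochondrial share of the cells was 3.11% on D0, 2.77% on D5, 5.22% on D13 and 6.12% on D15, and its part in the levels was not tested. Levels are given as CPM, the usual scaling of UMIs to a common total, here the total of the pool. Since UMIs were counted at the 3′ end, 1 per transcript, levels of different genes were compared without division by length. A count of 3 UMIs, the most that a count of 0 allows for, came to 0.0167 to 0.0904 CPM per pool, and such limits cover counting error only. Any 2 of the libraries shared at most 41 cell barcodes, or 1.63% of the smaller library. In a sum over a pool, fewer cells of a type and less RNA per cell cannot be told apart.

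ADM was the most abundant member on every day and was highest before transfection. It stood at 173 and 166 CPM in pools A and B of D0, 89.8 and 61.4 on D3, 137 and 106 on D5, and 134 and 129 on D7. Later it stood at 108 and 89.4 CPM on D9, 103 and 84.8 on D11, 102 and 35 on D13, and 35.8 and 42.2 on D15. The D0 pools lay above all others and the mean went from 170 ± 5 (SD, n = 2) to 39 ± 4.53 CPM on D15, a ratio of 4.36. The fitted log2 difference of D15 from D0 was -2.18 ± 0.35 (SE). In the order of the daily means, the pools of neighbouring days overlapped from D7 down to D15, so only the D0 level stood clear of the next. The pools of D13 differed by 2.92 times.

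CALCRL, the receptor, was transient. It went from 1.73 CPM in both pools of D0 to 13 and 13.7 on D3, 20.5 and 19.7 on D5, and 10.9 and 14.3 on D7. It then stood at 3.99 and 3.09 CPM on D9, 0.733 and 1.34 on D11, 0.544 and 1.08 on D13, and 0.784 and 0.663 on D15. The log2 difference of D3 from D0 was 2.91 ± 0.35 (SE), and the mean of D5, 20.1 ± 0.558 CPM (SD, n = 2), was 27.8 times that of D15. The pools of D5 lay above those of every other day, and the levels of D11, D13 and D15 overlapped. An antisense gene, CALCRL-AS1, overlaps CALCRL. The strand setting of the counting is not given in the sources used here, and the part of antisense reads in the CALCRL count was not tested. The antisense gene was counted apart from CALCRL, at 0.205 CPM at most.

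The co-receptors did not follow CALCRL. RAMP1 was at its lowest on D3, when CALCRL was already high, with 8.53 and 7.97 CPM on D0, 2.1 and 1.81 on D3, 5.06 and 3.34 on D5, and 12.4 and 19.2 on D7. It then stood at 10.9 and 12.1 CPM on D9, 52 and 30.4 on D11, 48.6 and 19.6 on D13, and 12.9 and 17 on D15. The mean of D11, 41.2 ± 15.3 CPM (SD, n = 2), was 21.1 times that of D3, and the pools of D11 and D13 overlapped. RAMP2, the co-receptor of the main adrenomedullin receptor, had its highest levels late. Its levels were 1.83 and 1.96 CPM on D0, 2.55 and 1.63 on D3, 4.98 and 5.67 on D5, and 14.3 and 12.7 on D7. On D9 they were 23.3 and 24, on D11 19.8 and 20.7, on D13 31.6 and 23.5, and on D15 28.8 and 28.1 CPM. The log2 difference of D15 from D0 was 3.85 ± 0.22 (SE). The pools of D0 and D3 overlapped, and those of D13 overlapped both D9 and D15, which lay apart from each other. An antisense gene, RAMP2-AS1, overlaps RAMP2 and reached 1.23 CPM. Antisense genes also overlap VEGFC, VEGFA and KDR, and reached 1.14, 0.392 and 0 CPM, of which the first is not far below the VEGFC level of D15. RAMP3 had no UMI in the 6 pools of D0 to D5, and 4 and 14 UMIs (0.028 and 0.102 CPM) on D7. It reached 0.848 and 0.809 CPM on D9 and 1.84 and 1.33 CPM on D15, so it was the rarest co-receptor throughout.

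**Figure D1:**
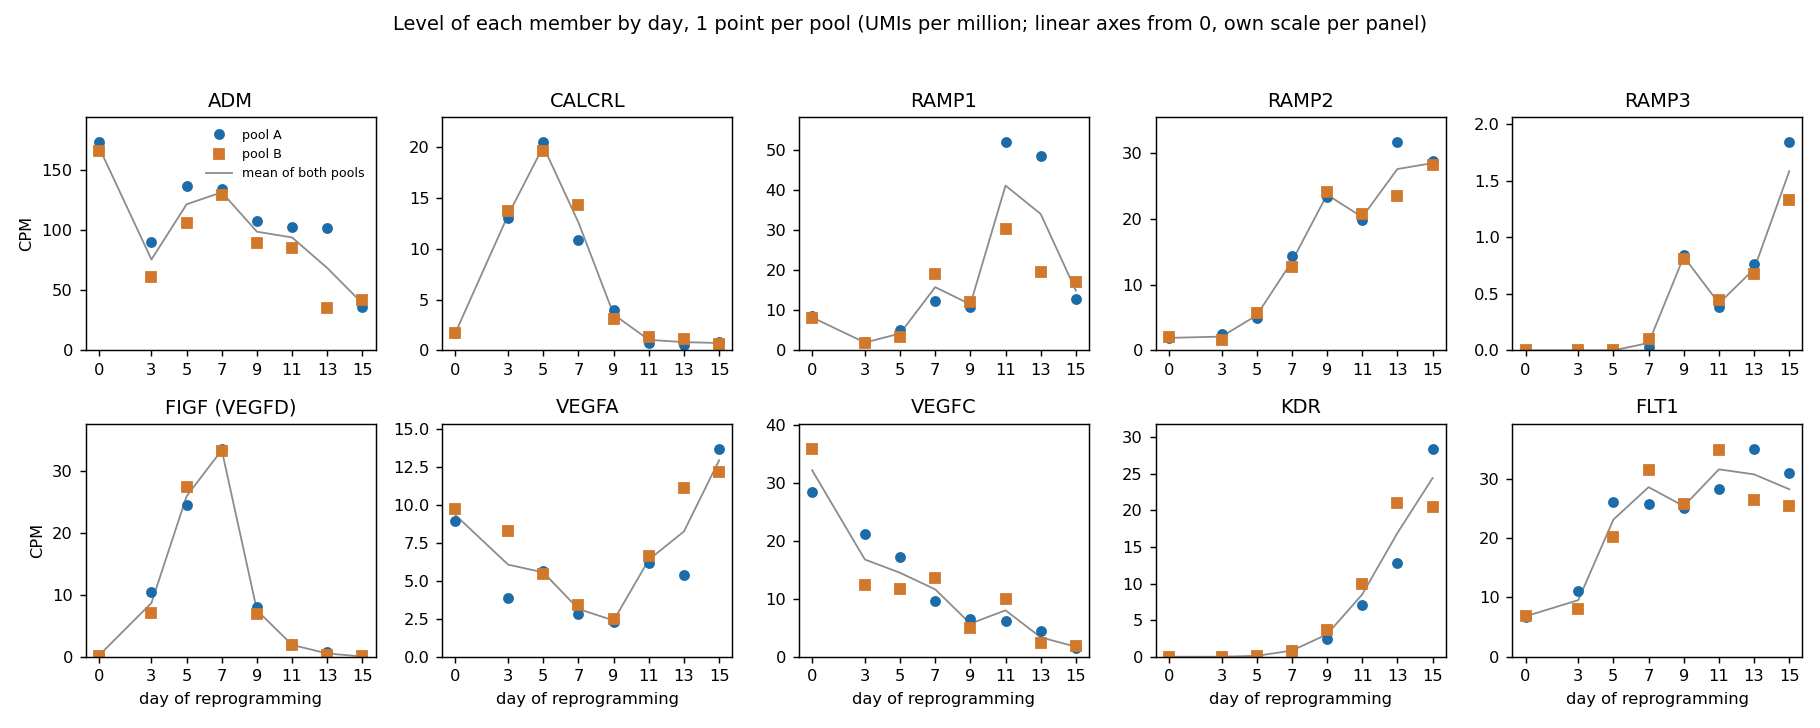
Level of each member (CPM, linear axes from 0 with a scale of its own in each panel) against the day of reprogramming, with 1 point per pool and a line through the mean of both pools. CALCRL and FIGF peak on D5 and D7, at means of 20.1 and 33.4 CPM, while RAMP2, RAMP3 and KDR are highest on D15 and ADM and VEGFC on D0.

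Counted together, the 3 co-receptors changed in their shares. RAMP1 held 81.3% of their UMIs on D0 (80.3% and 82.3% in the pools) and 33.1% on D15 (29.7% and 36.6%), while RAMP2 went from 18.7% to 63.3%. In the pool sums RAMP1 was not lower at the end, with means of 8.25 CPM on D0 and 15.0 on D15. Its smaller share in those sums went with the higher RAMP2. The D15 sums mix cell classes described below. Pluripotency-marker cells, 85.3% and 81% of those pools, had 2.89 and 4.05 CPM of RAMP1, and collagen-marker cells had 131 and 168. The shares did not move steadily: that of RAMP1 was 31.9% on D9, 65.5% on D11 and 52.4% on D13. RAMP3 never held more than 4.22% in any pool. CALCRL was down to a mean of 3.54 CPM on D9, when RAMP2 first exceeded 20 CPM in both pools, so the receptor and this co-receptor had their highest levels on different days.

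Among the VEGF ligands that are members, VEGFC had its highest level in the fibroblasts, FIGF in the middle of the course and VEGFA at its end. VEGFC, a lymphatic growth factor, stood at 28.5 and 35.9 CPM on D0, 21.2 and 12.4 on D3, 17.3 and 11.7 on D5, and 9.69 and 13.6 on D7. It then stood at 6.55 and 4.9 CPM on D9, 6.1 and 9.95 on D11, 4.37 and 2.35 on D13, and 1.57 and 1.91 on D15. Its log2 difference of D15 from D0 was -4.26 ± 0.37 (SE), and the mean of D0 was 18.5 times that of D15. FIGF, the related ligand VEGFD, was nearly absent on D0, with 25 and 26 UMIs (0.15 and 0.177 CPM). It reached 10.4 and 7 CPM on D3, 24.5 and 27.4 on D5, and 33.6 and 33.2 on D7. It then stood at 8.03 and 6.97 CPM on D9, 2.01 and 1.83 on D11, 0.778 and 0.291 on D13, and 0.0301 and 0.0617 on D15, where only 1 and 4 UMIs were left. The log2 difference was 5.69 ± 0.38 (SE) from D0 to D3 and -2.19 ± 0.30 from D7 to D9. The pools of D7 lay above all others, and those of D3 and D9 overlapped.

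VEGFA, the main ligand of KDR, had its lowest levels in the middle of the course. It stood at 8.96 and 9.71 CPM on D0, 3.87 and 8.27 on D3, 5.65 and 5.47 on D5, and 2.85 and 3.44 on D7. It stood at 2.28 and 2.51 CPM on D9, 6.16 and 6.63 on D11, 5.42 and 11.1 on D13, and 13.7 and 12.2 on D15. The mean of D15, 12.9 ± 1.07 CPM (SD, n = 2), was 5.38 times that of D9, and the pools of D15 lay above all others. The difference of D15 from D0 was 0.41 ± 0.38 (SE) on the log2 scale. As shares of the UMIs of the 3 ligands, VEGFC led on D0 with 77.1%, FIGF on D7 with 69.4% and VEGFA on D15 with 87.8%. The family's ligands PGF and VEGFB are not members and were not counted in these shares. Their mean levels were 39.9 and 26.5 CPM on D0, 136 and 12.9 on D7, and 9.13 and 11.6 on D15.

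The VEGF receptors were both higher at the end than in the fibroblasts, but on different days. FLT1 came first. It stood at 6.7 and 6.92 CPM on D0, 11 and 8.07 on D3, 26.1 and 20.1 on D5, and 25.7 and 31.4 on D7. From D9 to D15 it stayed between 25 and 35 CPM, and the pools of neighbouring days in the order of means overlapped from D11 down to D5. KDR came later. It had 1 or 2 UMIs in each pool of D0 and D3, which is below the limit of 3 UMIs, and 8 and 6 UMIs on D5. It reached 0.96 and 0.731 CPM on D7, 2.47 and 3.65 on D9, 7.04 and 10.0 on D11, 12.8 and 21 on D13, and 28.4 and 20.4 on D15. The fitted log2 differences were 1.81 ± 0.34 (SE) from D7 to D9, 1.45 ± 0.32 from D9 to D11 and 1.09 ± 0.32 from D11 to D13, and the pools of D13 and D15 overlapped. KDR held 2.94% of the UMIs of both receptors on D7 and 46.1% on D15. Genes that define endothelial cells were low in all pools: PECAM1 reached 0.542 CPM, CDH5 0.809 and VWF 0.723. Of the 11 endothelial markers, ESAM reached 5.01 CPM, SOX18 3.51 and the others 1.52 at most. Their sum was 2.88 and 3.37 CPM on D0, 1.8 and 1.83 on D3, 10.9 and 11.7 on D9, where it was highest, and 5.68 and 8.17 on D15. Its part in the KDR levels was not tested.

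**Figure D2:**
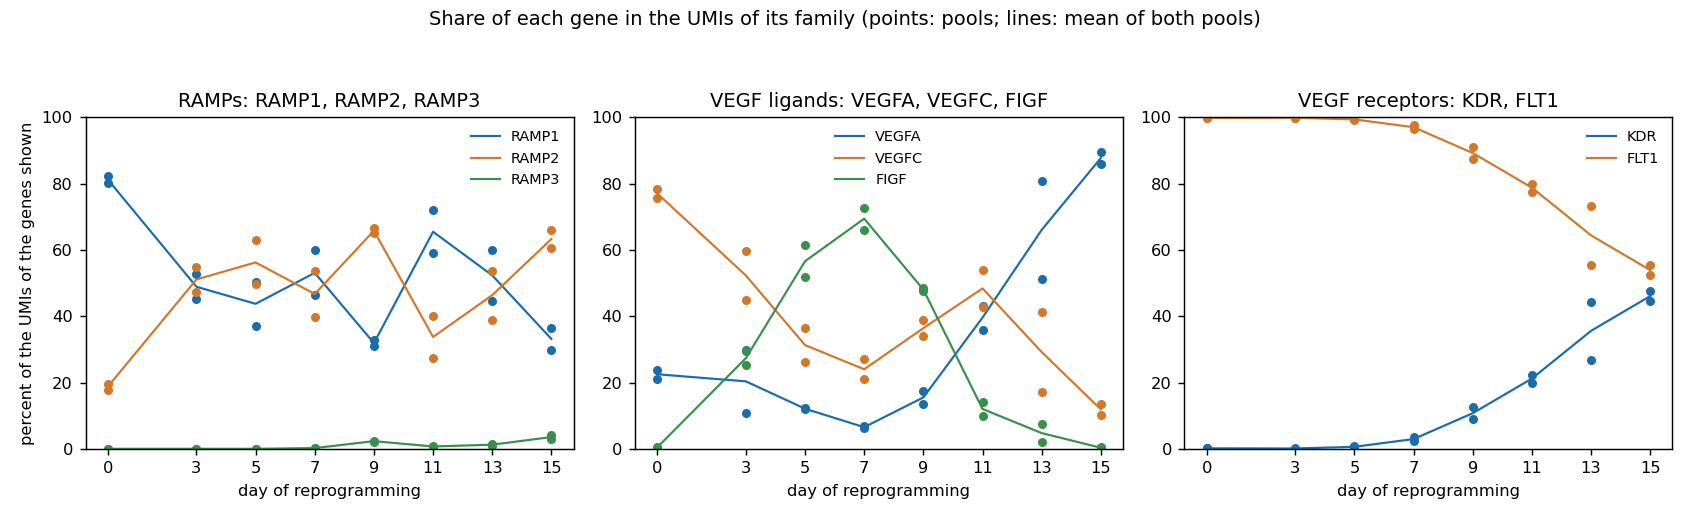
Percent of the UMIs of each family held by each gene against the day, for the co-receptors, the VEGF ligands and the VEGF receptors (points are pools, lines the mean of both). RAMP1 leads the co-receptors on D0 with 81.3% and RAMP2 on D15 with 63.3%. Of the ligands shown, VEGFC leads on D0 and FIGF on D7. VEGFC leads again on D11 with a mean of 48.4%, beside 39.6% for VEGFA, and VEGFA leads on D15. PGF and VEGFB are not counted.

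The size of these changes can be read against the spread between pools. Members at 5 CPM or more differed between the pools of a day by a median of 0.088 on the log2 scale on D0 and of 0.80 on D13, where all 9385 genes at that level differed by a median of 0.48. The aliquots of a pool are a second measure. Over 53 pairs of aliquot values with at least 20 UMIs each, the median absolute log2 difference was 0.48. RAMP1 gave the largest, 2.09, with 2.78 CPM in one aliquot of pool A of D9 and 11.9 in the other. In pool B of D9 it had 4.95 and 17.9 CPM, and in pool B of D7 6.96 and 22.6. Cells with high collagen markers, described below, made up 14% and 39.8% of the aliquots of pool A of D9 and 17.2% and 39.7% of those of pool B. Within these cells RAMP1 still differed between the aliquots, with 19.0 and 34.8 CPM in pool A and 24.1 and 53.2 CPM in pool B, from 20 and 637 cells and from 153 and 303 cells, so the 19.0 rests on very few cells. The part of the cell mixture in the RAMP1 level of a pool was not tested further.

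Over the 16 pools, the genes whose log2(CPM + 1) ran most like that of a member were PARVA for ADM (Pearson r = 0.962), SLITRK6 for CALCRL (0.981), TAGLN for RAMP1 (0.956) and CLDN6 for RAMP2 (0.993). They were ADORA2B for FIGF (0.975), ZNF514 for VEGFA (0.956), BIVM for VEGFC (0.988), ADCY2 for KDR (0.997) and OLFM2 for FLT1 (0.987). TAGLN is a smooth muscle gene, CLDN6 a tight junction gene of pluripotent cells and ADORA2B an adenosine receptor. The points share their libraries and days, and each gene was the best of all genes tested, so the coefficients describe the pools and have no p-value.

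Other genes of the pathways were tested between days from lists made by their known roles, though with earlier results of these data known: 62 genes, of which 55 were detected in at least 5% of cells and were tested among 12794 genes. A call needs an adjusted p below 0.01 in edgeR's quasi-likelihood test (Benjamini-Hochberg) and a log2 fold change beyond 0.25. From D0 to D3, 5 of the 55 genes rose and 13 fell, where 13.1% of all genes rose and 12.6% fell. The median log2 fold change was -0.35 over the list and -0.06 over all genes. From D3 to D7, 4 rose and 2 fell (6.48% and 1.45% of all genes). From D7 to D11, 9 rose and 4 fell (7.64% and 3.88%). From D11 to D15, 2 rose and 10 fell (2.53% and 6.18%), with a median of -0.14 against 0.00 over all genes. Only 4 pools carry each comparison. Refitted with those 4 pools alone, 0 pathway genes passed in edgeR from D0 to D3, where 29 had an unadjusted p below 0.05 and DESeq2 on all pools called 24, and 1 passed from D3 to D7, where DESeq2 called 14. Without pool A or B of D0 the count from D0 to D3 was 11 or 10, without pool A or B of D11 that from D7 to D11 was 8 or 7, and that from D11 to D15 was 6 without either pool of D11 in turn, 2 without pool A of D15 and 4 without pool B.

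Among the relatives of adrenomedullin and CGRP, PAM, the enzyme that amidates both peptides, fell from 95.4 and 108 CPM on D0 to 41.9 and 33.2 on D3 (log2 -1.48 ± 0.34 SE, adjusted p = 0.0043, edgeR). MME, a peptidase that degrades adrenomedullin, fell from 25.1 and 37.8 CPM on D11 to 8.89 and 10.4 on D15 (-1.61 ± 0.28, adjusted p = 0.0023). CALCB, a form of CGRP, was picked out after its values were seen, since it is a ligand of CALCRL with RAMP1. It stood at 0.238 and 0.0731 CPM on D7, 1.72 and 1.75 on D11, and 6.09 and 5.83 on D15, and no test of it is given. On D11 and D15 CALCRL was below 1.5 CPM in every pool. ADM2, another ligand of CALCRL, stayed below 4 CPM in every pool. Named in the same way and given without a test, it stood at 0.144 and 0.183 CPM on D0, 0.703 and 0.695 on D3, 0.869 and 0.833 on D7, and 2.17 and 2.33 on D11. CALCR, the calcitonin receptor, and the scavenging receptors ACKR3 and GPR182 were found in fewer than 5% of all cells and were not tested between days, although CALCR and ACKR3 were present in the mesendoderm-marker cells described below.

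Among the VEGF relatives, the co-receptors NRP1 and NRP2, which bind VEGF family members and semaphorins, passed in different comparisons. NRP2 rose from 6.49 and 6.91 CPM on D0 to 15.8 and 30.8 on D3 (log2 1.78 ± 0.35 SE, adjusted p = 0.0016, edgeR). NRP1 fell from 23.3 and 32 CPM on D7 to 9.31 and 12.5 on D11 (-1.40 ± 0.22, adjusted p = 0.00056) and further to 4.4 and 4.3 on D15 (-1.24 ± 0.22, adjusted p = 0.0027). PGF, a ligand of FLT1 and not of KDR, was at 164 and 109 CPM on D7, above all 3 VEGF ligands among the members, and fell to 40.4 and 27 on D11 (-2.06 ± 0.36, adjusted p = 0.0012) and 9.92 and 8.35 on D15 (-1.82 ± 0.36, adjusted p = 0.0045). CCBE1, a cofactor of the cleavage of VEGFC, fell from 28.3 and 29.4 CPM on D0 to 7.32 and 6.22 on D3 (-2.13 ± 0.22, adjusted p = 2.4e-05). THBS1, a secreted inhibitor of angiogenesis, fell from 188 and 205 CPM to 36.7 and 42.6 between the same days (-2.34 ± 0.27, adjusted p = 4.2e-05) and again from D11 to D15. FLT4, the main receptor of VEGFC and VEGFD, reached 1.24 CPM at most and was not tested.

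Of 22 HIF targets tested, 3 rose and 5 fell from D0 to D3, where 13.1% of all genes rose and 12.6% fell. SLC2A3, a glucose transporter, fell from 52.2 and 55 CPM to 11.5 and 16.8 (log2 -1.94 ± 0.19 SE, adjusted p = 1.9e-05, edgeR), then rose to 39.4 and 39.3 on D7 (1.41 ± 0.19, adjusted p = 0.00022) and to 108 and 129 on D11 (1.53 ± 0.19, adjusted p = 9.2e-05). CA12, a carbonic anhydrase, was at 11 and 12 CPM on D0, rose from 1.95 and 3.22 on D7 to 9.74 and 11.8 on D11 (2.00 ± 0.25, adjusted p = 0.00011) and fell to 2.29 and 2.16 on D15 (-2.19 ± 0.26, adjusted p = 3e-04). P4HA2, a collagen prolyl hydroxylase, and LOX, which crosslinks collagen, fell from D11 to D15, by 2.08 ± 0.30 and 1.56 ± 0.33 on the log2 scale (adjusted p = 0.00078 and 0.0063). Collagen-marker cells, described below, made up 42.7% and 40.1% of the pools of D11 and 9.81% and 10.6% of those of D15. Their part in these and the other falls from D11 to D15 was not tested. EGLN3, a HIF prolyl hydroxylase, rose from 1.21 and 0.892 CPM on D7 to 13.5 and 13.4 on D11 (3.62 ± 0.29, adjusted p = 2.3e-06). HIF1A itself passed in none of the 4 comparisons and lay between 36.5 and 74.9 CPM. On D15, when ADM had its lowest mean, the HIF targets lay on both sides. SLC2A3, at 141 and 150 CPM, had its highest mean then, and so had HK2, KDM3A and DDIT4. CA12, NDRG1, P4HA2, LOX, LDHA and PFKFB3 had their lowest mean on that day, as ADM did.

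**Figure D3:**
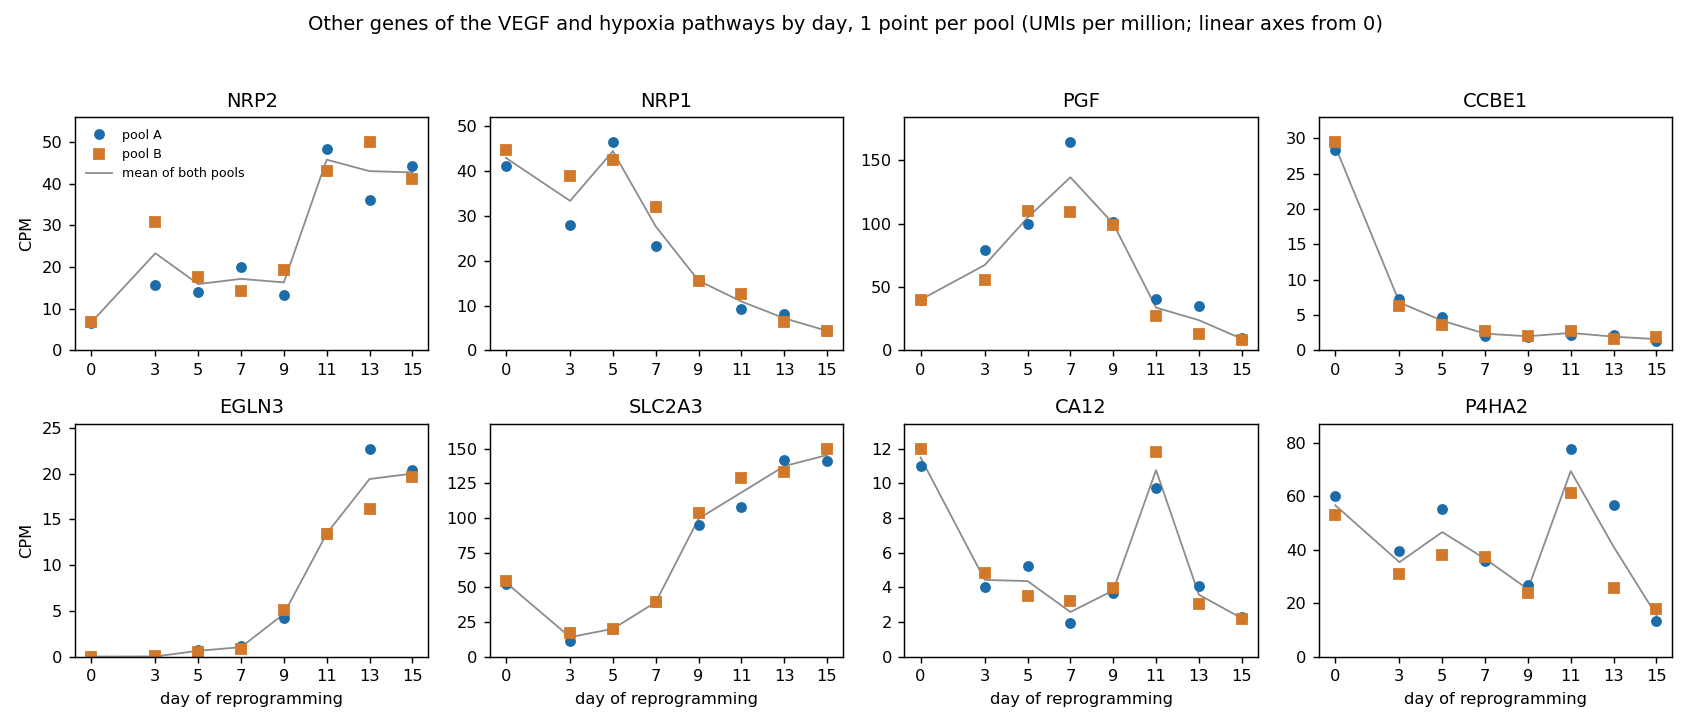
Level of 8 other genes of the VEGF and hypoxia pathways (CPM, linear axes from 0) against the day, with 1 point per pool and a line through the mean. PGF peaks on D7 at 164 and 109 CPM, NRP1 and CCBE1 fall, NRP2, EGLN3 and SLC2A3 end high, and CA12 and P4HA2 peak again on D11.

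From D9 the pools held cells of different states, and the members were compared between them within each pool. Classes were cut on the log2 ratio of the summed pluripotency markers to the summed collagen markers, with 50 CPM added to each: pluripotency-marker cells at 0 or above and collagen-marker cells at -2 or below. Mesendoderm-marker cells of D11 to D15 had at least 300 CPM of markers such as CER1 and EOMES. Of the mesendoderm-marker cells, 550 also met the limit for pluripotency-marker cells and were counted only as mesendoderm-marker cells. These limits were set after the data were seen. Of 17727 cells of D9 to D15, 10148 were pluripotency-marker cells, 5086 collagen-marker cells and 923 mesendoderm-marker cells, 1570 were in no class, and 1518 and 951 lay within 0.5 of the first and second limit. Median depths were 49709, 38268 and 36448 UMIs per cell. Collagen-marker cells made up 27.6% to 42.7% of the pools of D9 and D11 and 9.81% and 10.6% of those of D15. Doublets were not removed and free RNA was not subtracted, so a low level in a class can include UMIs from another.

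Between pluripotency-marker and collagen-marker cells, 6 of the 8 members tested were called in 8 pools: KDR higher and ADM, CALCRL, RAMP1, VEGFC and FLT1 lower in pluripotency-marker cells. Of all genes tested, 37.2% were higher and 33% lower. The filter of 5% of cells took both classes together. CALCRL and VEGFC passed it largely through the collagen-marker cells, where they are higher, so their place in this count is not independent of the difference. RAMP1 had 34.2 and 46.1 CPM in the collagen-marker cells of D9, 124 and 94.7 on D11, 189 and 101 on D13, and 131 and 168 on D15. In pluripotency-marker cells it had 0.741 and 1.6 CPM on D9, 17.1 and 2.01 on D11, 2.78 and 7.71 on D13, and 2.89 and 4.05 on D15. The classes did not overlap, and the log2 difference was -4.90 ± 0.39 (SE, adjusted p = 2e-06, edgeR with the pool as a block). Pool A of D11 stood apart: its pluripotency-marker cells had the most RAMP1 and a collagen marker sum of 1100 CPM, against 477 to 774 in the other pools. Without it the difference was -5.20. VEGFC followed, with 9.96 to 30.3 CPM in collagen-marker cells and 0.639 to 1.13 in pluripotency-marker cells (-4.11 ± 0.21, adjusted p = 2.3e-07). It was found in 3.05% to 8.17% of the pluripotency-marker cells of a pool and in 22.0% to 48.4% of the collagen-marker cells.

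ADM lay between 81.2 and 238 CPM in collagen-marker cells and between 20.5 and 51 in pluripotency-marker cells, with no overlap (log2 -2.38 ± 0.15 SE, adjusted p = 5.5e-07, edgeR). Within the collagen-marker cells it was at 217 and 200 CPM on D9 and at 81.2 and 102 on D15, so the level also differed between days inside the class. CALCRL was lower in pluripotency-marker cells in all 8 pools (-2.77 ± 0.27, adjusted p = 7e-06), but its levels there, 0.305 to 1.03 CPM, and in collagen-marker cells, 0.954 to 8.52 CPM, were both far under the 20.1 CPM of D5. It was found in 1.52% to 7.33% of the pluripotency-marker cells of a pool and in 3.94% to 22.4% of the collagen-marker cells. FLT1 was lower as well (-1.92 ± 0.15, adjusted p = 1.5e-06), with 9.87 to 24.5 CPM against 53.2 to 118. FIGF and RAMP3 were in fewer than 5% of the cells and so were not among the 8 members tested. With no filter on the share of cells, both were called, FIGF lower (-3.76 ± 0.38, adjusted p = 3.76e-06, edgeR) and RAMP3 higher (3.50 ± 0.45, adjusted p = 2.39e-05) in pluripotency-marker cells. FIGF had 13.8 and 14 CPM in the collagen-marker cells of D9 and 1.83 and 1.72 in the pluripotency-marker cells, and RAMP3 was higher in pluripotency-marker cells in all 8 pools, at 0.57 to 2.06 against 0 to 0.207 CPM.

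KDR was the only one of the 8 members tested that was called higher in pluripotency-marker cells, beside RAMP3 when no filter was used. It had 4.21 and 5.81 CPM there on D9, 11 and 15.8 on D11, 16.8 and 23.5 on D13, and 28.8 and 22.2 on D15. Collagen-marker cells had 0.296 and 0.661 CPM on D9, 1.79 and 0.943 on D11, 3.44 and 10.7 on D13, and 36.0 and 9.41 on D15, the 36.0 from only 56 cells of pool A. The difference was 2.15 ± 0.46 on the log2 scale (SE, adjusted p = 0.0014, edgeR) and higher in 7 of 8 pools. Without the pool as a block it was 1.27 ± 0.77 (adjusted p = 0.154). Even inside the pluripotency-marker cells the D15 pools were above the D9 pools. Thinned to 10000 UMIs per cell, 23.6% and 19.9% of pluripotency-marker cells of D15 had a KDR UMI, against 4.15% and 6.29% on D9. Without thinning, at median depths of 58253 and 31514 UMIs per cell, the D15 shares were 68.0% and 45.5%. Collagen-marker cells of the same pools, thinned in the same way, had a KDR UMI in 19.6% and 8.37% of cells on D15 and in 0.304% and 0.877% on D9. The 19.6% is 11 of 56 cells of pool A, near the 23.6% of its pluripotency-marker cells, and free KDR RNA was not measured. The thinning left out 279 shallower cells in all. RAMP2 and VEGFA were not called: RAMP2 had 19.6 to 30.2 CPM in pluripotency-marker and 18.7 to 52.5 in collagen-marker cells (-0.13 ± 0.13, adjusted p = 0.38), and VEGFA differed by -0.03 ± 0.19 (adjusted p = 0.89). The median of the 8 members was -2.15, against 0.07 over all genes tested.

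**Figure D4:**
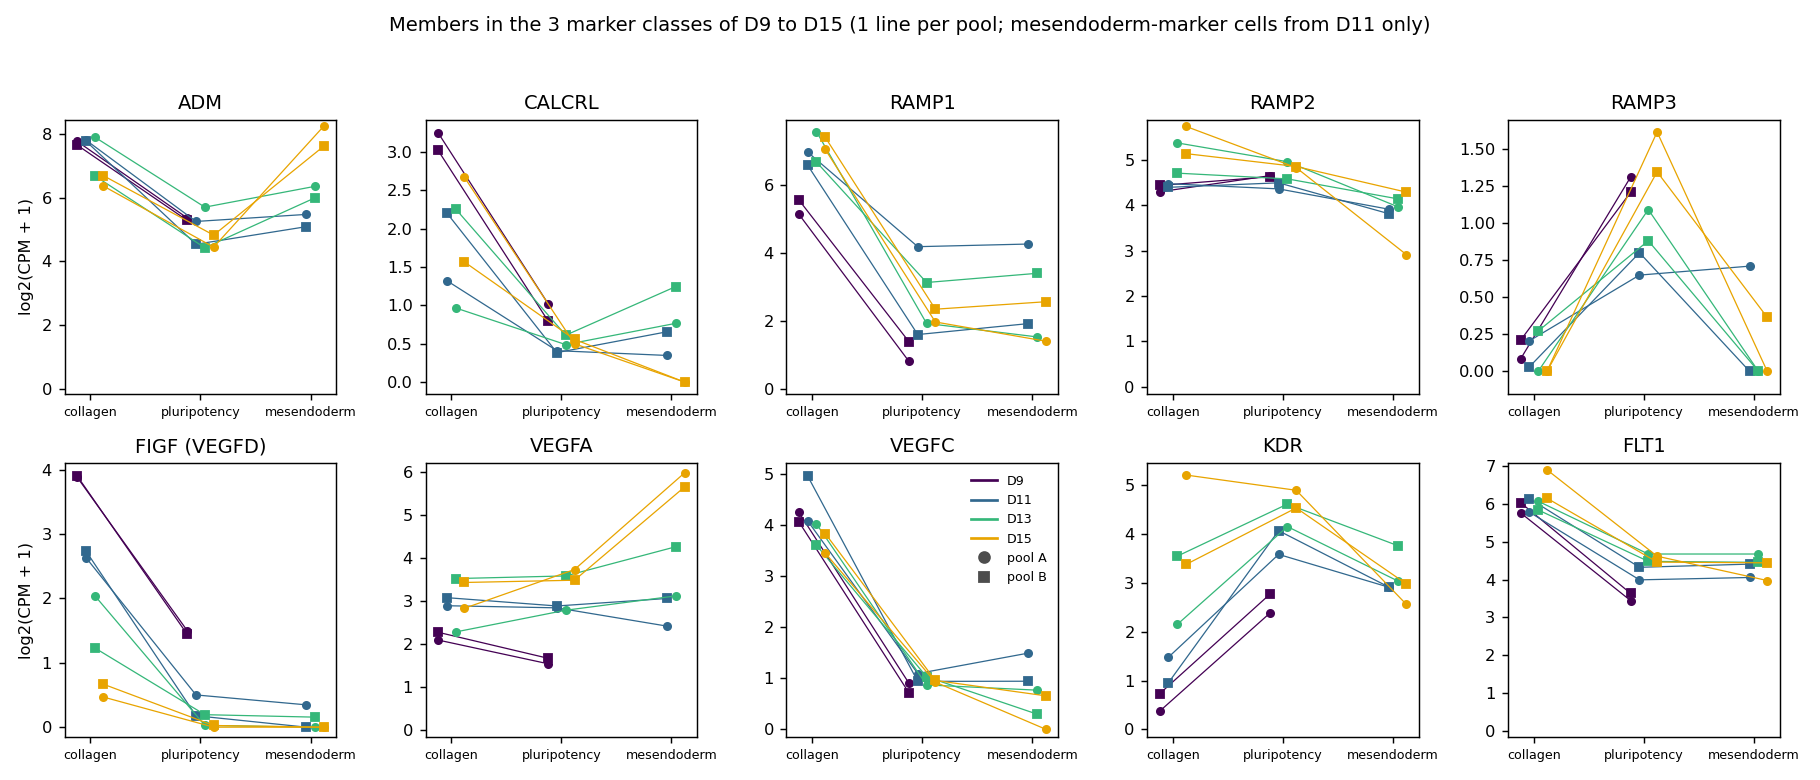
Level of each member as log2(CPM + 1) in collagen-marker, pluripotency-marker and mesendoderm-marker cells, with 1 line per pool of D9 to D15 (colour is the day, circles pool A, squares pool B). RAMP1, VEGFC, ADM and FLT1 are lower in pluripotency-marker than in collagen-marker cells in all 8 pools, RAMP2 is lower in 5 pools and higher in 3, and within the pools of D15 ADM and VEGFA are highest in the mesendoderm-marker cells.

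Of the 55 pathway genes tested, 9 were higher and 31 lower in pluripotency-marker cells, where 37.2% of all genes were higher and 33% lower. Here too the filter of 5% of cells took both classes together. The median log2 difference was -0.89 over the list and 0.07 over all genes. The lower ones included THBS1, with a median of 10.9 against 318 CPM (log2 -4.57 ± 0.23 SE, adjusted p = 2.5e-07, edgeR), LOX with 5.34 against 146 (-4.82 ± 0.32, adjusted p = 7.6e-07), P4HA2 with 7.95 against 122 (-3.82 ± 0.16, adjusted p = 1.7e-07), and MME with 7.61 against 80.8 (-3.48 ± 0.19, adjusted p = 3.5e-07). SEMA3C, a semaphorin that binds neuropilins, and THBS2 were lower by 3.95 ± 0.32 and 3.33 ± 0.15 on the log2 scale (adjusted p = 2e-06 and 1.8e-07). All 5 angiopoietins and antagonists and 7 of 9 VEGF relatives tested were lower, against the same 33% of all genes.

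Mesendoderm-marker cells were compared with pluripotency-marker cells in the 6 pools of D11 to D15, where 6 members could be tested. KDR and RAMP2 were lower and none was higher, while 18.4% of all genes were lower and 19.9% higher. KDR had 6.53 and 6.55 CPM in mesendoderm-marker cells on D11, 7.24 and 12.6 on D13, and 4.9 and 6.89 on D15, below the pluripotency-marker cells of the same pool each time (log2 -1.31 ± 0.18 SE, adjusted p = 0.00051, edgeR). RAMP2 had 6.54 to 18.6 CPM, again lower in 6 of 6 pools (-0.82 ± 0.16, adjusted p = 0.0025), a call that was lost without pool A of D13 (adjusted p = 0.0107). ADM pointed the other way. It had 43.4 and 33 CPM in mesendoderm-marker cells on D11, 80.8 and 62.7 on D13, and 302 and 195 on D15, and it was higher than in pluripotency-marker cells in 6 of 6 pools, but the difference missed the limit (1.52 ± 0.48, adjusted p = 0.025). VEGFA had 4.35 and 7.35 CPM on D11, 7.7 and 18.2 on D13, and 62.1 and 49.3 on D15, and was higher in 5 of 6 pools (0.88 ± 0.38, adjusted p = 0.077). The D15 values rest on 23 and 143 cells. RAMP1 differed by 0.06 ± 0.15 (adjusted p = 0.79) and FLT1 by -0.11 ± 0.10 (adjusted p = 0.35). The median of the 6 members was -0.03 and that of all genes 0.00.

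Of 53 pathway genes tested in this contrast, 23 were higher and 5 lower, where 19.9% of all genes were higher and 18.4% lower. The filter of 5% of cells took both classes together here too. A gene that is low in pluripotency-marker cells, such as ANGPT2, can pass it largely through the mesendoderm-marker cells. The place of such a gene in this count is then not independent of the difference. ANGPT2, an antagonist of the receptor TEK that loosens vessels, had a median of 42.5 CPM in mesendoderm-marker cells against 0.948 in pluripotency-marker cells (log2 5.39 ± 0.31 SE, adjusted p = 2.1e-05, edgeR). The VEGF co-receptors NRP2 (180 against 20.3 CPM, 3.08 ± 0.16, adjusted p = 1.5e-05) and NRP1 (20.8 against 1.61, 3.18 ± 0.38, adjusted p = 0.00031) and the FLT1 ligand PGF (27.4 against 7.71, 1.51 ± 0.14, adjusted p = 0.00012) were higher. CALCR, the calcitonin receptor, had 3.9 to 14.2 CPM in mesendoderm-marker cells and 0.393 to 1.38 in pluripotency-marker cells, and since it was singled out for this difference no test is given. The scavenging receptor ACKR3 had 0.181 to 18.2 CPM in mesendoderm-marker cells, with a median of 4.12, and was not tested. Of 22 HIF targets, 8 were higher and 3 lower, shares to be read against the same 19.9% and 18.4%. The higher ones included SLC2A3 with 469 against 115 CPM (1.78 ± 0.36, adjusted p = 0.0033) and CA12 with 15.9 against 2.55 (1.71 ± 0.34, adjusted p = 0.0033).

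On D3 to D7, when CALCRL and FIGF were at their highest, chemokine-high cells were compared with the rest in 6 pools. These were the 20% of the cells of each pool with the highest sum of chemokines (such as CXCL8) and the cytokines IL1B, IL6 and CSF3. Of 8 members tested, VEGFA, VEGFC and FLT1 were higher and CALCRL was lower in chemokine-high cells, beside 17.2% of all genes higher and 14.4% lower. CALCRL had 7.83 and 9.8 CPM in chemokine-high cells on D3, 5.6 and 12.8 on D5, and 9.57 and 9.6 on D7, against 14.2 and 14.5, 23.4 and 21.2, and 11.1 and 15.3 in the rest. It was lower in 6 of 6 pools (log2 -0.75 ± 0.17 SE, adjusted p = 0.0047, edgeR). VEGFA had 3.43 to 11.9 CPM against 2.73 to 7.5, higher in 6 of 6 pools (0.66 ± 0.11, adjusted p = 0.00062), and VEGFC was higher by 0.35 ± 0.07 (adjusted p = 0.0016), also in 6 of 6. FLT1 was higher in 5 of 6 (0.44 ± 0.10, adjusted p = 0.0054). The calls of CALCRL and FLT1 were each lost without pool A or B of D3 or pool B of D7, that of CALCRL also without pool B of D5 and that of FLT1 without pool A of D7, with adjusted p up to 0.0268. Those of VEGFA and VEGFC held without any 1 pool. With no block on the pool, none of the 4 calls remained, and 1 of all 12297 genes was called. ADM, RAMP1, RAMP2 and FIGF did not pass, with differences of 0.16 ± 0.13, 0.28 ± 0.19, -0.39 ± 0.15 and -0.35 ± 0.19. The median of the 8 members was 0.22 and that of all genes -0.01. Collagen markers were higher in the chemokine-high cells too, with a median sum of 4450 against 2830 CPM per cell, and their part in these differences was not tested.

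Of the pathway genes, 18 of 49 were higher and 5 lower in chemokine-high cells, where 17.2% of all genes were higher and 14.4% lower. EPAS1, a HIF subunit also known from endothelium, had a median of 10.2 against 3.13 CPM (log2 1.85 ± 0.16 SE, adjusted p = 2.2e-05, edgeR), THBS2 18.4 against 6.91 (1.53 ± 0.13, adjusted p = 2e-05) and MME 80.8 against 44.3 (0.89 ± 0.05, adjusted p = 5.3e-06). THBS1, ANGPTL4 and NDRG1 were higher by 0.92 ± 0.08, 0.85 ± 0.10 and 0.80 ± 0.10 (adjusted p = 2.2e-05, 9.8e-05 and 0.00017). The part of the higher collagen markers of chemokine-high cells, given above, was not tested for these genes either.

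The paper describes a matrisomal and a pluripotent outcome that part around D7, so a low ratio of pluripotency to collagen markers on a late day need not mean an earlier stage. To see how the members lay by this ratio within pools, the 20% of cells of each pool with the highest ratio were set beside the 20% with the lowest, from D5 to D15. This split was added after the data were seen and is given without a test, as log2(CPM + 1) of the first minus the second. RAMP1 was lower at the high ratio in all 12 pools, with differences from -6.55 to -3.04, and already on D5, with -3.46 and -3.35. FIGF changed sides. It was higher at the high ratio by 1.75 and 0.93 on D5 and by 0.09 and 1.47 on D7, and differed by -2.97 and -3.18 on D9. On D7 it had 26.3 and 35.9 CPM at the high ratio and 24.6 and 12.3 at the low ratio, and on D9 0.454 and 0.582 against 10.4 and 13.3 CPM. The pools thus lay on opposite sides of 0 on D7 and D9. CALCRL was higher at the high ratio by 0.67 and 0.53 on D5, differed by -0.69 and 0.34 on D7, and was lower in all later pools.

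RAMP2 and KDR were on the side of the high ratio from early on. RAMP2 differed by 0.92 and 0.97 on D5, 1.24 and 1.99 on D7, 1.4 and 0.2 on D9, and 1.3 and 2.09 on D11. It differed by 0.74 and -0.25 on D13, and by -0.22 and -0.19 on D15, when it had 34.7 and 33.2 CPM at the low ratio. KDR differed by 1.1 and 1.63 on D7, 2.45 and 3.57 on D11, and 0.12 and 0.75 on D15. VEGFA moved across gradually, from -1.03 and -1.34 on D5 and -0.83 and -0.76 on D9 to -0.09 and -0.45 on D11, 0.59 and 0.41 on D13 and 0.69 and 0.83 on D15. On D15 pluripotency-marker cells made up 85.3% and 81% of the pools, so the lowest 20% reached into that class and the split does not compare the same states on each day.

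**Figure D5:**
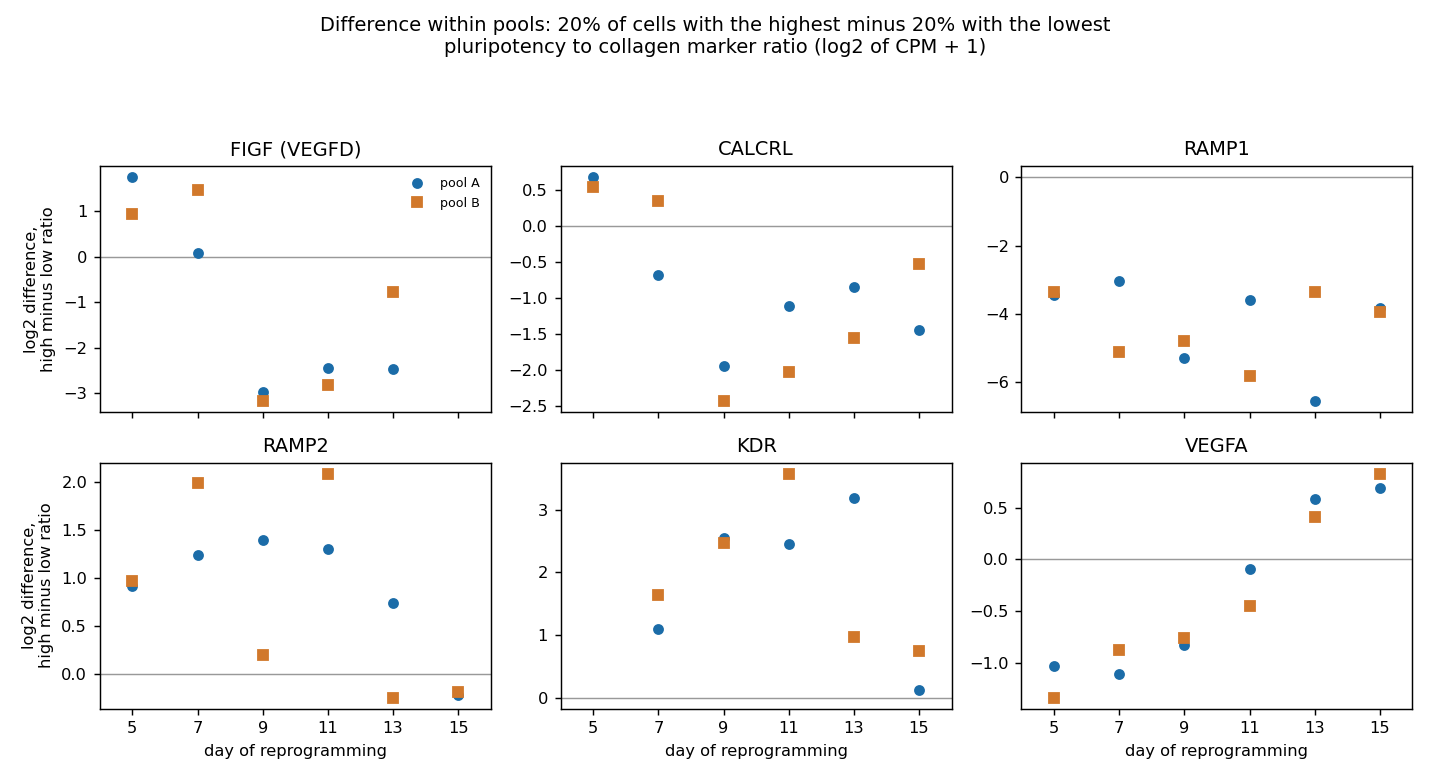
Log2 difference of 6 members between the 20% of cells with the highest and the 20% with the lowest ratio of pluripotency to collagen markers, by day and pool (0 is no difference, pools without enough UMIs are left out). FIGF passes from above 0 on D5 and D7 to -2.97 and -3.18 on D9, VEGFA passes from below 0 to 0.69 and 0.83 on D15, and RAMP1 lies below 0 in all 12 pools.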

How the data were processed

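The single-cell RNA-seq tables of the reprogramming course were used. The deposited values are raw counts of UMIs per gene and cell barcode, which the authors made with Cell Ranger 2.2 (per the submitters' processing notes) on hg38. They are not normalized. Their 44197 barcodes match the number of cells that the paper had after Cell Ranger, before its own filter on genes and mitochondrial reads. Doublets were not reported as removed. No doublet caller was run here. Depth was 33181614 to 180056814 UMIs per pool.

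Groups came from the labels, and no sample was unassigned. Aliquots of a pool were added, which gave 16 pools, 2 per day. For days, p-values measure the spread between the pools of a day. For classes, with the pool as a block, they measure how far the class difference varied between pools, which also come from different days. A cell was used if it had 1000 genes or more and no more than 10% of its UMIs from mitochondria, and a gene was tested if 5% of the cells or more had it. UMIs were summed per pool, or per pool and class, and fitted with edgeR 4.0.16 (TMM, quasi-likelihood test) in R 4.3.3, for days on all 16 pools, for classes with the pool as a block. Calls need a Benjamini-Hochberg adjusted p under 0.01 with a change of more than 0.25 on the log2 scale, and marker genes that cut a class were left out of its counts. Classes, promoters and figures used Python 3.11.15 (pandas 2.3.3, numpy 2.4.6, matplotlib 3.10.9, scipy 1.17.1). The fits were tested on simulated data. Positions are from GENCODE on GRCh38.

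The members, lists and classes were chosen with earlier results of these data known. Named are the 10 members, per comparison up to 6 called genes of the pathway lists by size of change with at least 10 CPM in the higher group, and per member with at least 5 CPM the genes with the most similar course, of which the first is given. CALCB, ADM2, HIF1A, VEGFB, HK2, KDM3A, DDIT4, LDHA and PFKFB3, and the genes under the limit, were named outside this rule. A gene that the rule names is not reported here. The pool letters do not pair days: over 28 pairs of days, deviations of same-lettered pools correlated at -0.40 to 0.81, with a median of -0.02. Alternatives were DESeq2 1.42.0, DESeq2's size factors, no filter on genes, all barcodes, the letter as a block or no block, only the 4 pools compared, stricter class limits and each pool left out. The larger aliquot alone, leaving out pool A of D11 with pool B of D13, and the split by marker ratio were added after the data were seen. The secreted proteins of the study were not analysed here.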

Additional observations from a re-analysis of the deposited data

Results flagged for a closer look

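Some pools stood apart from the others of the same contrast by Dixon's test, which chance alone passes in about 1 of 20 sets; 5 of 27 sets did so. The differences are of log2(CPM + 1). FIGF in pool B of D13 differed between pluripotency-marker and collagen-marker cells by -1.04, where the nearest pool gave -2.02. It was at 0.144 and 1.35 CPM there, from 17 and 26 UMIs. The 1 CPM added shrinks a difference between levels this low, so the pool cannot be said to stand apart in its ratio. Between mesendoderm-marker and pluripotency-marker cells, pool A of D15, which has 23 mesendoderm-marker cells, gave -1.92 for RAMP2 (nearest pool -0.99) and -0.64 for FLT1 (nearest -0.03). Between chemokine-high cells and the rest, pool A of D5 gave -1.89 for CALCRL (nearest -0.78) and -1.64 for FIGF (nearest -0.47).

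The split by marker ratio changed sign between adjacent days for 2 members, and on each of these days pools A and B lay on 1 side; 46 pairs of days were compared and the changes were not tested. For FIGF the difference moved by -3.86 from D7 to D9, when the transfections ended and the medium was changed as well. For VEGFA it moved by 0.77 from D11 to D13.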

How the results depend on the processing

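Of 272 refitted class differences of members, 244 kept direction and side of the limit, 15 lost the call, 3 gained it and 10 changed sign. Those 10 were uncalled: RAMP2 against collagen-marker cells at stricter limits (0.14), VEGFA in the same contrast with no filter (0.06), no block (0.16), and without pools D9 A (0.07), D9 B (0.08) or D11 B (0.01), and RAMP1 in mesendoderm-marker cells with no filter (-0.04), without D11 B (-0.01), D13 B (-0.04) or both D11 A and D13 B (-0.09). With 1 pool left out, VEGFA ran from -0.18 to 0.08 and RAMP1 from -0.04 to 0.15. The cause was not tested.

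Of 81 refitted counts, 65 stayed within 1.5 times. The 4 pools of both days alone gave 0 pathway genes from D0 to D3 and 1 from D3 to D7 (0 and 570 of all 12794 genes), with fewer pools to estimate the spread, and DESeq2 gave 14 from D3 to D7 (1550 of all). Leaving out 1 pool gave 10 to 13 pathway genes from D0 to D3, 4 to 7 from D3 to D7, 7 to 10 from D7 to D11 and 2 to 6 from D11 to D15 (2 without D15 A), while of all genes 1444 to 3028, 680 to 930, 868 to 1006 and 174 to 431 were called. It gave 1 to 2 members in the mesendoderm contrast and 2 to 4 in the chemokine contrast. For these no count over all genes is given, so they are not read against other genes. In the day fits the lone pool is assumed to vary like other days. With the pool letter as a replicate block the counts were 18, 7, 13 and 11, a pairing that the letters do not carry, and 5, 3 and 0 members were called with no block on the pool (6837 of 13165, 2451 of 13118 and 1 of 12297 genes). In that last fit 1 chemokine difference had an unadjusted p below 0.05, and DESeq2 called 4. For the counts with the letter block and for the 4 of DESeq2 no count over all genes is given either. ADM was called higher in mesendoderm-marker cells with no block (1.92, adjusted p = 0.00748) and at stricter limits (1.47, adjusted p = 0.00702, edgeR), and FIGF lower in chemokine-high cells at stricter limits (-0.87, adjusted p = 0.00558). Of 20 levels of members on their highest day under other scalings or filters, 19 moved by less than the SD between pools, and ADM on D0 moved from 170 ± 5 to 180 ± 9.07 CPM with TMM-scaled totals. With 2 pools a day, levels under 3 UMIs, as for KDR before D5, cannot be ordered.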
